A study of Mus musculus with 12 samples.

Results

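The response of wild type ear skin to maxacalcitol ointment was measured against skin treated with phosphate-buffered saline (PBS), using RNA sequencing of 3 libraries per group, 6 of the 12 libraries of the study. Every gene with at least 1 FPKM (fragments per kilobase, a level corrected for transcript length and for how deeply the library was sequenced) in at least 3 of the 12 libraries was compared, which kept 14059 of 23234 gene symbols. All mice were C57BL/6J, aged 8 to 12 weeks. WT_Oxarol is wild type skin that received 100 mg of Oxarol ointment, which holds 2.5 µg of maxacalcitol, an active vitamin D3 analogue, and WT_PBS is wild type skin that received PBS; both were taken 1 day after application. PBS is not the ointment base, so an effect of the base and an effect of maxacalcitol cannot be told apart in this comparison. The other libraries were used for the shared estimate of spread and, where named, for levels: WT_untreated is untreated wild type skin, and VDRcKO_Oxarol is ointment-treated skin of mice labelled K5-Cre;VDR f/f, in which Cre under the keratin 5 promoter acts on a floxed vitamin D receptor gene.

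Active vitamin D and its analogues bind the vitamin D receptor, a nuclear receptor that pairs with a retinoid X receptor and binds DNA, classically at direct repeats of a half-site separated by a short spacer. Keratinocytes express the receptor, and analogues of this kind are applied to skin in psoriasis, where they act on keratinocyte growth and differentiation. In mouse skin, such compounds are also known to raise the epithelial cytokine thymic stromal lymphopoietin, and a textbook target of the receptor in many tissues is Cyp24a1, the hydroxylase that degrades active vitamin D.

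With the ointment, 35 genes rose and 8 fell (limma, adjusted p under 0.05), 0.249% and 0.0569% of all genes tested, or 0.306% together. The 3 ointment libraries did not overlap the 3 PBS libraries for any of the 43 genes. Of all genes tested, 7.53% were higher and 8.36% lower without overlap. The 43 were called on these same values, so their separation is a description. Among the genes that rose were the vitamin D hydroxylase Cyp24a1, the zinc importer Slc39a4, the epidermal proteases Klk6, Klk12 and Klk13, the cornified envelope precursors Sprr2a2 and Sprr2b, the keratin Krt1 and the cytokine Tslp. Among those that fell were the secretoglobin Scgb1a1, the epidermal lipase Lipn, the amino acid transporter Slc6a14 and Clca3. The number of calls rested on the spread estimated from all 12 libraries: a limma fit of the 6 libraries alone gave no adjusted p under 0.05, that is 0 genes called, with 1401 genes below 0.05 before adjustment. It also moved with single libraries, to 15, 27 and 20 genes without WT_PBS replicates 1, 2 and 3, and to 132, 21 and 13 without WT_Oxarol replicates 1, 2 and 3. In all 6 of these leave-one-out fits, 12 of the 43 genes were still called: Cyp24a1, Sprr2b, Sprr2a2, Slc39a4, Klk13, Krt1, Pla2g4f, Ass1, Cib2, Clca3, Mir1224 and Mir744. With the library code series as a term, 44 genes were called, of which 34 were among the 43, and Crot, Fam162a, Tesc, Gm5424, 2010109I03Rik, Slc37a2, Cyp17a1, Hagh and Ankrd55 lost their calls.

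Among the called genes matched to a promoter, only Klk12 and Klk13 have a stretch close to the receptor's binding motif, and both are shown here. Their share of the raised genes matched, 8.7%, was near the 5.72% of all genes with a promoter. The matches are therefore no result about these 2 genes. The motif searched was a pair of half-sites, each being AGGTCA, or else AGGTGA, or else AGTTCA, or else AGTTGA, or else GGGTCA, or else GGGTGA, or else GGTTCA, or else GGTTGA, in direct repeat with a spacer of 3 bases (NNN), on both strands, in the 250 bases before the gene start; some of these half-sites are shared with the motifs of other nuclear receptors. Promoters came from RefSeq on GRCm38.p6, a later build than the mm9 that the deposited levels used, and 26 of the 43 called genes were matched. Cyp24a1 was among the genes without a promoter entry, so its promoter was not searched. With at most 1 mismatch, the motif was in the promoters of 2 of the 23 raised genes matched (8.7%), 0 of the 3 lowered genes matched and 5.72% of the 27025 genes with a promoter; an exact match was in 0 of the 23 and in 0.255% of all. In the sequences below, read along the gene's strand, capitals mark the match, at -126 to -112 from the start of Klk12 on the gene's strand (chr7:43768850-43769099, + strand) and at -56 to -42 from the start of Klk13 on the opposite strand (chr7:43712317-43712566, + strand).
Klk12: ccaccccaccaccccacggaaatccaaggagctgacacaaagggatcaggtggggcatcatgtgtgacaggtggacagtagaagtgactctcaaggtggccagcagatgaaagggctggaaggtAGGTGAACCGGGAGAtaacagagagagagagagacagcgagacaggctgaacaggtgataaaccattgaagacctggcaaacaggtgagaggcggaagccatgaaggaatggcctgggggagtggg
Klk13: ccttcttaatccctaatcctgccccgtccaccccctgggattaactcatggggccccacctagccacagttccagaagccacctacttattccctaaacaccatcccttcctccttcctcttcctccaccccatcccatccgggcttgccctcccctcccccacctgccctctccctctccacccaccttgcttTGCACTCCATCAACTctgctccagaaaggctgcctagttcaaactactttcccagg
A match is a description of these letters, and binding was not measured here.

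Cyp24a1 showed the largest rise of any called gene. It stood at 0.0296, 0.0230 and 0.0130 FPKM in the 3 PBS libraries and at 66.2, 599 and 458 FPKM in the 3 ointment libraries. Its log2(FPKM + 1) level rose by 8.02 ± 0.62 (SE, n = 3 and 3, adjusted p = 0.000566). Of the 16 measured genes for the receptor, its partners and the vitamin D hydroxylases, Cyp24a1 was the single one called, 8 had a difference above 0, and the median was -0.02, against 0.01 over all genes tested. Vdr, the receptor gene, stood at 9.28, 10.1 and 9.43 FPKM with PBS and at 7.87, 6.68 and 7.05 FPKM with the ointment, a log2 difference of -0.38 ± 0.21 (SE, adjusted p = 0.787). Rxra, which encodes the partner receptor, differed by -0.04 ± 0.12 (SE, adjusted p = 1.00). Hr, which encodes the receptor's corepressor hairless, differed by 0.60 ± 0.18 (SE, adjusted p = 0.313). Of 14 measured genes known as receptor targets in gut, bone, kidney and other cells, 0 were called and 8 had a difference above 0 (median 0.06). The calcium channel gene Trpv6 differed by -0.06 ± 0.17 (SE) and Cd14 by 0.04 ± 0.16 (SE).

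**Figure D1:**
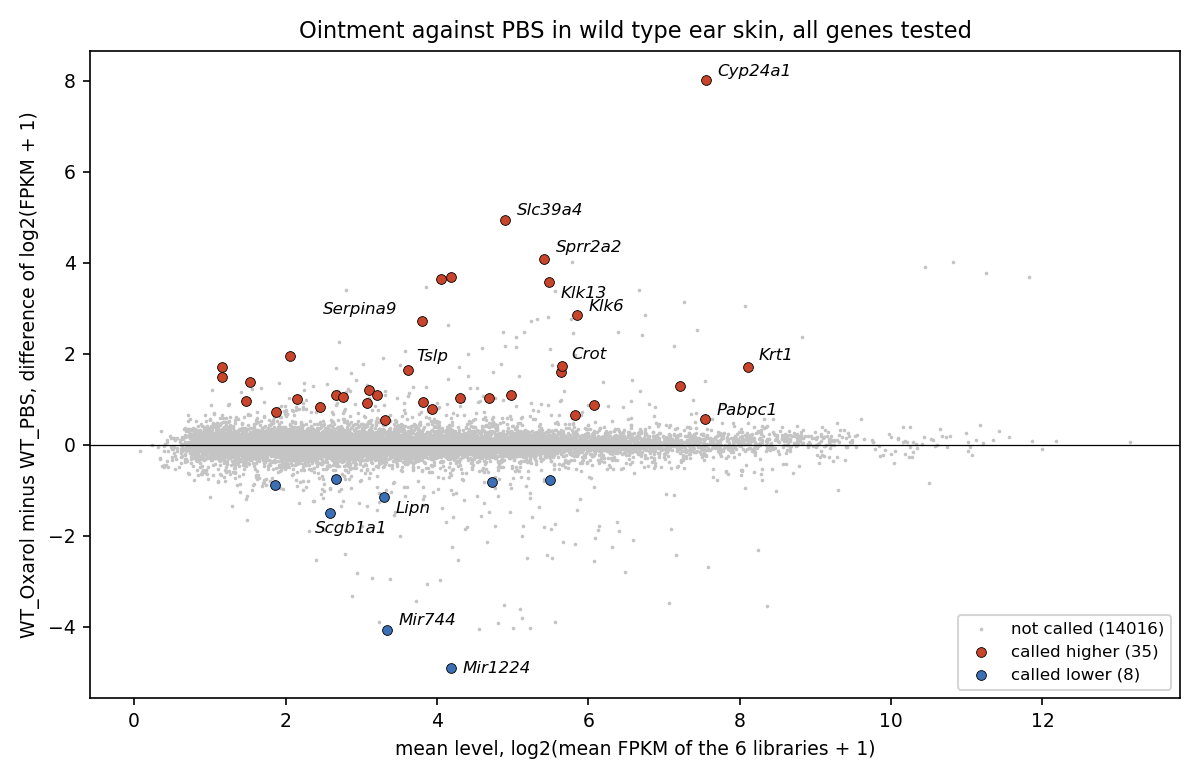
Each point is a gene: the horizontal axis is its mean level over the 6 libraries as log2(FPKM + 1), and the vertical axis the ointment minus PBS difference of mean log2(FPKM + 1); red and blue points are the 35 higher and 8 lower called genes and grey points the 14016 others. Cyp24a1 stands apart at 8.02, the called genes span low to high levels, and many large differences at mid and high levels, in both directions, were not called.

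Slc39a4, which encodes the zinc importer ZIP4 that takes up zinc in the gut, was nearly silent with PBS. It stood at 0.589, 0.317 and 0.436 FPKM there and at 12.9, 87.8 and 71.2 FPKM with the ointment, a rise of 4.95 ± 0.53 on the log2 scale (SE, adjusted p = 0.00433). Untreated skin had 0.474 to 0.528 FPKM. Of 22 measured zinc transporters and metallothioneins, Slc39a4 alone was called and 9 had a difference above 0 (median -0.02). Another importer gene, Slc39a2, stood at 4.65, 7.36 and 4.43 FPKM with PBS and at 7.61, 13.4 and 11.2 FPKM with the ointment, without overlap and without passing (0.85 ± 0.24 SE, adjusted p = 0.259). Mt1, a metallothionein that binds zinc, differed by 0.31 ± 0.14 (SE, adjusted p = 0.675).

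Kallikreins are secreted serine proteases that cleave the links between cells of the cornified layer. Of the 10 measured family members 3 rose, against 0.249% of all genes tested. Klk13 went from 4.14, 11.5 and 3.17 FPKM with PBS to 46.7, 109 and 86.8 FPKM with the ointment (3.58 ± 0.41 SE, log2, adjusted p = 0.00669). Klk6 went from 12.5, 17.9 and 8.39 FPKM to 63.5, 138 and 99.7 FPKM (2.85 ± 0.35 SE, adjusted p = 0.00778). Klk12 went from 0.819, 1.47 and 0.936 FPKM to 8.86, 49.1 and 32.9 FPKM (3.64 ± 0.46 SE, adjusted p = 0.00917). Most of the family leaned the same way: 9 of 10 had a difference above 0 (52.1% of all genes tested), and the median was 0.73. Without overlap, 7 were higher and 1 was lower (7.53% and 8.36% of all genes). These counts include the 3 called genes, which were called on these same values. Klk8 and Klk9, named after their values were seen, differed by 0.97 ± 0.23 and 0.63 ± 0.16 (SE, adjusted p = 0.148 and 0.181), whereas Klk5, the major stratum corneum protease, differed by -0.29 ± 0.16 (SE, adjusted p = 0.795). Klk6 lost its call without WT_Oxarol replicate 3 and Klk12 without that library or without WT_PBS replicate 1, with differences over the leave-one-out fits of 2.59 to 3.15 and 3.15 to 4.32.

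Among inhibitors of proteases, Serpina9, a member of the serpin family, stood at 2.58, 2.20 and 2.39 FPKM with PBS and at 11.7, 35.8 and 22.7 FPKM with the ointment. It rose by 2.72 ± 0.35 (SE, log2, adjusted p = 0.00964) and lost its call without WT_PBS replicate 1 or WT_Oxarol replicate 3 (2.36 to 3.12 over the leave-one-out fits). It was the single gene called of 23 serpins and Kazal-type or related inhibitors, whose median was -0.17. Of these, Spink6, which encodes an inhibitor of kallikreins, was among the lowest at -1.35 ± 0.27 (SE, adjusted p = 0.0859). The stefins, inhibitors of cysteine proteases, had the highest median of any list, at 0.86 over 10 genes, with 8 above 0 and 0 called. Stfa1 stood at 30.4, 39.4 and 10.6 FPKM with PBS and at 112, 187 and 119 FPKM with the ointment (2.48 ± 0.59 SE, adjusted p = 0.158), and Stfa3 differed by 2.06 ± 0.41 (SE, adjusted p = 0.0859). Stfa1, Stfa3, BC100530 and BC117090 belong to a cluster of similar genes that may share reads. Over the whole list, 5 of 10 were higher without overlap (7.53% of all genes) and 1 was lower (8.36% of all genes). BC117090 was chosen after its values were seen.

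Small proline-rich proteins are cross-linked into the cornified envelope, the protein shell of the outermost keratinocytes. Of 11 measured genes 2 rose, against 0.249% of all genes tested. Sprr2b stood at 1.79, 2.39 and 0.656 FPKM with PBS and at 47.0, 27.9 and 23.7 FPKM with the ointment, a rise of 3.70 ± 0.30 (SE, log2, adjusted p = 0.000566). Sprr2a2 stood at 3.43, 6.98 and 1.53 FPKM with PBS and at 117, 69.2 and 52.1 FPKM with the ointment, a rise of 4.09 ± 0.43 (SE, adjusted p = 0.00433). For both, the highest ointment library was replicate 1. In the transcript models of a later annotation (GENCODE M21), the longest Sprr2a2 transcript is 98.8% identical to that of Sprr2a3 over 2866 aligned bases, and that of Sprr2b 87.5% identical to that of Sprr2a2 over 686, so how the reads were divided between copies is uncertain. Of the 11 genes, 10 had a difference above 0 (52.1% of all genes tested), with a median of 0.85. This median was 0.56 without WT_PBS replicate 3. Sprr4 was the exception (-1.12; adjusted p = 0.60).

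The differentiation genes did not move together. Krt1, the type II keratin of suprabasal keratinocytes, stood at 137, 148 and 99.2 FPKM with PBS and at 344, 502 and 415 FPKM with the ointment, a rise of 1.71 ± 0.21 (SE, log2, adjusted p = 0.00669). Its partner Krt10 differed by 0.08 ± 0.22 (SE, adjusted p = 1.00). Rptn, which encodes the envelope protein repetin, rose by 0.72 ± 0.10 (SE, adjusted p = 0.0168), from 1.60, 1.73 and 1.94 FPKM to 4.09, 3.47 and 3.11 FPKM. It was the single gene called of 29 for the envelope scaffold, filaggrin-type proteins and transglutaminases, of which 8 were above 0 (median -0.13, from -0.22 without WT_Oxarol replicate 1 to -0.04 without WT_PBS replicate 2). Flg2, a filaggrin relative, differed by -0.93 ± 0.21 (SE, adjusted p = 0.146), the loricrin gene Lor by -0.04 ± 0.18 (SE) and the involucrin gene Ivl by -0.52 ± 0.19 (SE, adjusted p = 0.474). Of 18 late cornified envelope genes, 0 were called and 17 were below 0, with a median of -0.26, which stood at -0.11 without WT_PBS replicate 2 and at -0.42 without WT_PBS replicate 3. The Rptn call was lost without any 1 of the PBS libraries or WT_Oxarol replicate 2 (0.64 to 0.79 over the leave-one-out fits).

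**Figure D2:**
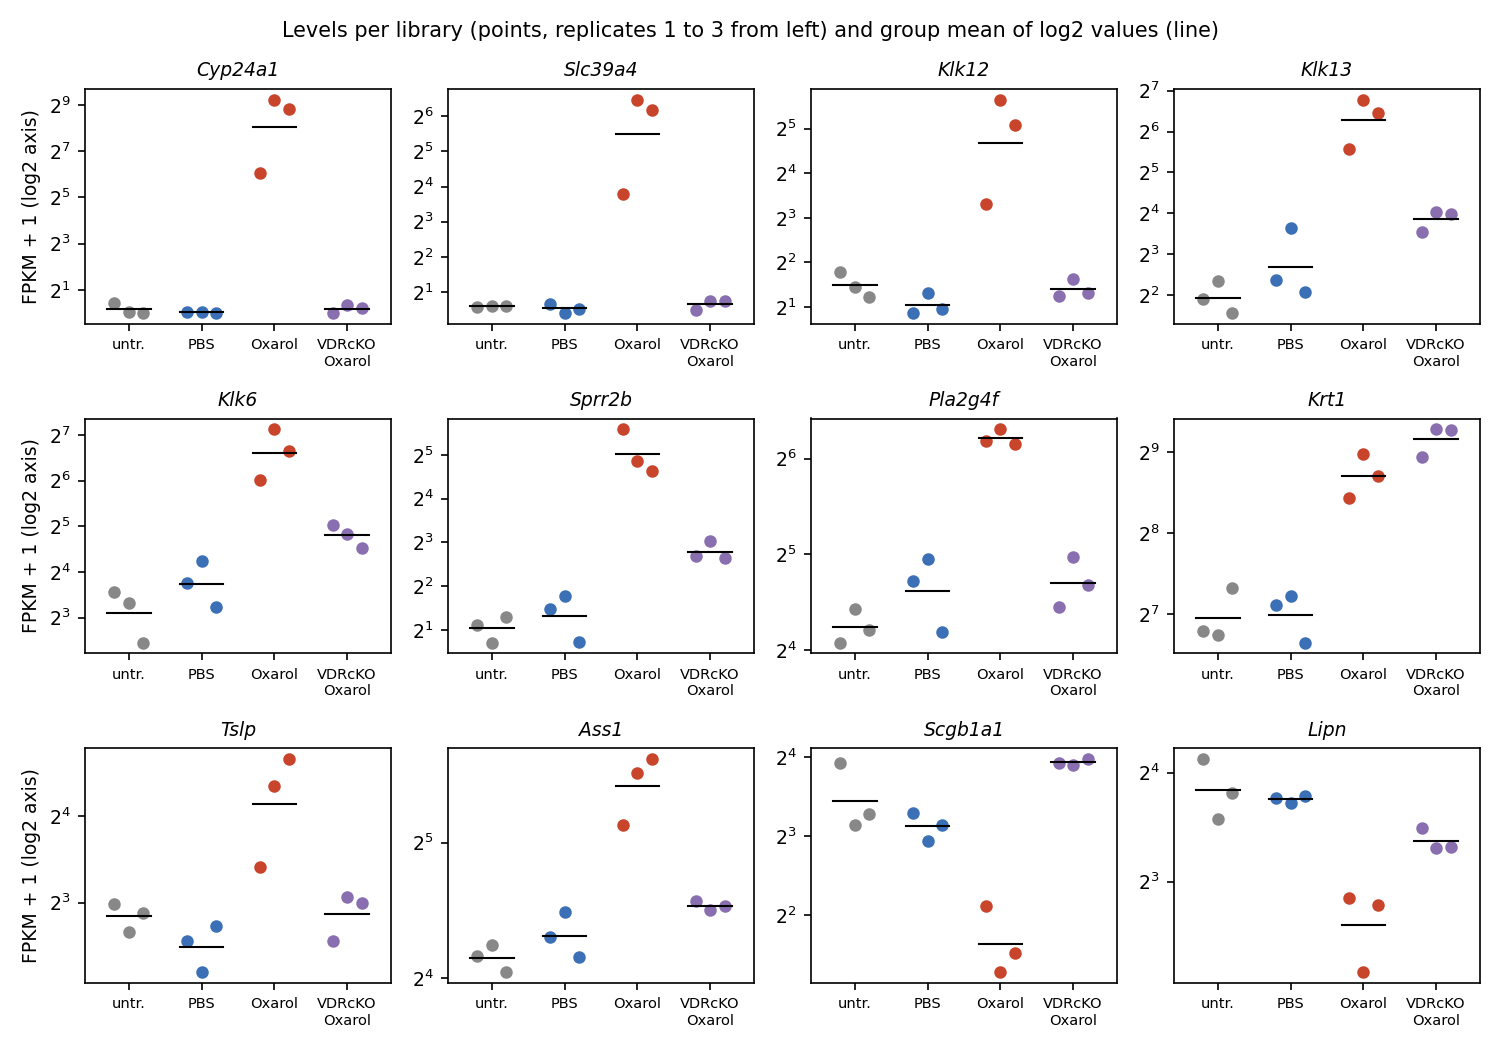
Levels of 12 called genes in every library, as FPKM + 1 on a log2 axis, with replicates 1 to 3 of each group from left to right and a line at the mean of the log2 values. The ointment libraries of wild type skin lie apart from PBS in every panel, replicate 1 is the lowest ointment library in 8 of the 10 raised genes shown, and in the libraries labelled VDRcKO_Oxarol Cyp24a1 and Slc39a4 are under 1 FPKM, whereas Krt1 is higher than with PBS.

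Lipid enzymes were called singly. Pla2g4f, a cytosolic phospholipase A2 that releases fatty acids from phospholipids, stood at 25.4, 29.8 and 17.3 FPKM with PBS and at 71.6, 78.3 and 70.3 FPKM with the ointment (1.60 ± 0.19 SE, log2, adjusted p = 0.00669). It was the single gene called of 26 for phospholipase A2, lipoxygenase and prostaglandin enzymes (median 0.04); of the others, Ptges, a prostaglandin E synthase, differed by 0.71 ± 0.14 (SE, adjusted p = 0.0859). Crot, the peroxisomal carnitine octanoyltransferase, stood at 21.8, 18.7 and 21.4 FPKM with PBS and at 37.0, 109 and 88.3 FPKM with the ointment (1.74 ± 0.30 SE, adjusted p = 0.0496), at the edge of the threshold. It was the single gene called of 28 for carnitine acyltransferases and fatty acid oxidation, of which 20 were above 0 with a median of 0.07. Agpat1, which makes phosphatidic acid, rose from 5.0, 4.66 and 5.04 FPKM to 9.92, 12.8 and 12.2 FPKM (1.09 ± 0.15 SE, adjusted p = 0.0133). Lipn, a lipase of the differentiated epidermis, fell from 12.6, 12.2 and 12.8 FPKM to 6.20, 3.5 and 5.91 FPKM, by 1.15 on the log2 scale (SE 0.18, adjusted p = 0.0296), and was the single gene called of 32 for ceramides and barrier lipids (median -0.09). The calls of Crot, Agpat1 and Lipn were each lost in 5 of the 6 leave-one-out fits, kept in the fit without WT_Oxarol replicate 1, and their differences ranged over 1.43 to 2.20, 1.03 to 1.20 and -1.28 to -0.94.

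Transporters and regulators of ion flow were called in both directions. Of 29 measured ion channels, FXYD proteins and water channels, 1 rose and 1 fell, 21 were below 0 (median -0.10), and 9 were lower and 2 higher without overlap (8.36% and 7.53% of all genes). Fxyd4, a small regulator of the sodium pump, stood at 0.263, 0.613 and 1.24 FPKM with PBS and at 3.56, 8.09 and 5.29 FPKM with the ointment (1.95 ± 0.30 SE, log2, adjusted p = 0.0266). Slc45a4 and Mfsd7a, solute carriers, rose by 1.02 ± 0.14 (SE, adjusted p = 0.0103) and 1.20 ± 0.16 (SE, adjusted p = 0.0108). Slc37a2, a sugar-phosphate exchanger, rose by 0.84 ± 0.14 (SE, adjusted p = 0.0384). Slc6a14, which carries neutral and cationic amino acids, went from 31.1, 33 and 33.3 FPKM with PBS to 22.6, 16 and 16.4 FPKM with the ointment, and fell by 0.81 on the log2 scale (SE 0.12, adjusted p = 0.0233). Clca3, of the calcium-activated chloride channel regulator family, fell by 0.88 on the log2 scale (SE 0.10, adjusted p = 0.00669), from 3.36, 3.94 and 3.81 FPKM to 1.73, 1.45 and 1.5 FPKM. All 5 measured Clca genes, by the deposited symbols, were lower without overlap (8.36% of all genes), although only Clca3 passed. Clca2, named after its values were seen, was the most abundant of them, at 183, 180 and 191 FPKM with PBS and 148, 57.1 and 74.5 FPKM with the ointment (-1.10 ± 0.26 SE, adjusted p = 0.158). Apart from Clca3, the calls in this paragraph were lost in 3 to 5 of the leave-one-out fits, with ranges of 1.69 to 2.19 for Fxyd4 and -0.96 to -0.72 for Slc6a14.

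Tslp encodes the epithelial cytokine thymic stromal lymphopoietin, which starts type 2 inflammation in skin. It stood at 4.87, 3.59 and 5.62 FPKM with PBS and at 9.65, 19.3 and 24.3 FPKM with the ointment, and rose by 1.65 ± 0.28 (SE, log2, adjusted p = 0.0440). Its call was lost in 5 of the 6 leave-one-out fits, all but that without WT_Oxarol replicate 1, with differences of 1.39 to 2.01. Of 13 measured epithelial and type 2 cytokines and their receptors it was the single one called, with 9 above 0 (median 0.04). Il33, another epithelial alarmin, differed by 0.31 ± 0.10 (SE, adjusted p = 0.383), and its receptor gene Il1rl1 by 0.64 (adjusted p = 0.383). The interleukin-1 family and inflammasome list showed no common direction, with 0 of 17 called, 7 above 0 and a median of -0.05. Among its members, Il18 stood at 46.5, 60.5 and 50.5 FPKM with PBS and at 35.3, 25.4 and 32.1 FPKM with the ointment (-0.75 ± 0.16 SE, adjusted p = 0.126), and Il1f6, which encodes interleukin-36 alpha, differed by -1.47 ± 0.42 (SE, adjusted p = 0.262), whereas Il1a differed by 0.44 ± 0.15 (SE, adjusted p = 0.438). Of 22 chemokines, 0 passed, with 12 above 0 and a median of 0.03; the 2 nearest the threshold went opposite ways, Cxcl16 by -0.53 ± 0.09 (SE, adjusted p = 0.0503) and 2610528A11Rik, now Gpr15l in RefSeq, by 1.72 ± 0.31 (SE, adjusted p = 0.0596). The latter was also unequal in the 2 controls, at 1.16, 0.454 and 0.643 FPKM in untreated skin, 9.77, 11.6 and 4.01 FPKM with PBS and 21.3, 36.6 and 28.0 FPKM with the ointment.

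Several signalling genes rose by smaller amounts. Gna15 encodes a G protein alpha subunit that couples many receptors to phospholipase C, and rose by 0.78 ± 0.10 (SE, log2, adjusted p = 0.00778), from 11.1, 9.48 and 10.2 FPKM to 17.3, 18.3 and 19.6 FPKM. Sfrp1, a secreted Wnt antagonist, rose by 1.03 ± 0.18 (SE, adjusted p = 0.0451); it was the single gene called of 20 Wnt, Notch and Hedgehog components (median -0.11). The Wnt ligand genes Wnt3a and Wnt10b in that list differed by -0.60 ± 0.11 and -0.64 ± 0.13 (SE, adjusted p = 0.0666 and 0.0909). Calcium-binding proteins of the EF-hand type are encoded by Cib2, Tesc and Ocm. Cib2 stood at 47.4, 41.0 and 51.3 FPKM with PBS and at 81.4, 80.2 and 96.6 FPKM with the ointment (0.87 ± 0.10 SE, adjusted p = 0.00669). Tesc rose by 1.03 ± 0.17 (SE, adjusted p = 0.0367) and Ocm by 1.5 ± 0.21 (SE, adjusted p = 0.0133), the latter from at most 0.401 FPKM in any PBS library. Skint7, of the immunoglobulin-like Skint family of epidermis and thymus, rose by 0.96 ± 0.12 (SE, adjusted p = 0.00964), from 0.995, 0.720 and 0.927 FPKM to 2.56, 2.26 and 3.19 FPKM, yet untreated skin had 2.68, 1.96 and 2.64 FPKM. The ointment and untreated libraries therefore overlapped for Skint7. The calls of Sfrp1 and Tesc were lost in 5 and that of Ocm in 4 of the leave-one-out fits. Gna15 and Skint7 lost their calls without WT_Oxarol replicate 3 (0.73 to 0.84 and 0.86 to 1.04 over the leave-one-out fits).

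Genes of intermediary and hormone metabolism were also called. Ass1 encodes argininosuccinate synthase, the urea cycle enzyme that also recycles citrulline to arginine, and stood at 18.7, 21.4 and 16.8 FPKM with PBS and at 33.9, 44.7 and 48.1 FPKM with the ointment (1.11 ± 0.13 SE, log2, adjusted p = 0.00669). Gm5424 rose by 0.92 ± 0.15 (SE, adjusted p = 0.0367), but its transcript is 99.5% identical to that of Ass1 over 1240 aligned bases in GENCODE M21, so the 2 calls may count the same reads. Cyp17a1, a hydroxylase and lyase of steroid hormone synthesis, rose by 1.06 ± 0.18 (SE, adjusted p = 0.0389), from 2.80, 3.70 and 3.49 FPKM to 5.94, 9.91 and 8.62 FPKM. Hagh, the second glyoxalase, rose by 0.65 ± 0.11 (SE, adjusted p = 0.0389), and Hpse, which encodes the matrix enzyme heparanase, by 1.09 ± 0.14 (SE, adjusted p = 0.0103). Ugt1a6b, a glucuronosyltransferase, rose by 0.55 ± 0.09 (SE, adjusted p = 0.0341), the smallest rise among the called genes, and is 97.7% identical to Ugt1a6a over 1116 aligned bases; Ugt1a6a differed by 0.56 ± 0.16 without passing (SE, adjusted p = 0.258). Fam162a, a mitochondrial protein gene known from hypoxia, rose from 86.3, 92.1 and 70.2 FPKM to 139, 257 and 241 FPKM (1.30 ± 0.21 SE, adjusted p = 0.0367). Pabpc1, which encodes the main cytoplasmic poly(A)-binding protein, rose by 0.56 ± 0.08 (SE, adjusted p = 0.0230), from 146, 167 and 136 FPKM to 225, 221 and 215 FPKM. Tmem53 and Ankrd55 rose by 0.94 ± 0.16 and 1.39 ± 0.23 (SE, adjusted p = 0.0384 and 0.0404). The histone H2A gene Hist2h2aa2 rose by 1.71 ± 0.23 (SE, adjusted p = 0.0103), but its transcript is identical to that of Hist2h2aa1 over 528 aligned bases (100%), and Hist2h2aa1 differed by -0.14 ± 0.10 (SE, adjusted p = 0.906). With the exception of Ass1, the calls in this paragraph were lost in 2 to 5 of the leave-one-out fits, Hpse in those without WT_PBS replicate 1 and without WT_Oxarol replicate 3 (0.95 to 1.22).

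The other genes that fell were few. Scgb1a1, a secretoglobin best known from airway club cells, went from 8.81, 6.71 and 7.81 FPKM with PBS to 3.33, 1.43 and 1.87 FPKM with the ointment, and fell by 1.49 on the log2 scale (SE 0.23, adjusted p = 0.0281). Of 13 listed markers of glandular and airway epithelium 2 were measured. Pstpip1, an adaptor of the cytoskeleton in blood cells, fell by 0.74 (SE 0.11, adjusted p = 0.0148), and 2010109I03Rik, now Ly6m in RefSeq, fell by 0.78 (SE 0.13, adjusted p = 0.0384), from 57.0, 54.4 and 55.4 FPKM to 39.6, 25.9 and 31.9 FPKM. These 3 calls were lost in 4 or 5 of the leave-one-out fits. The precursor genes of 2 microRNAs were called on very little signal. Mir1224 stood at 36.0, 54.7 and 12.3 FPKM with PBS and was listed at 0 in all 3 ointment libraries, but also at 0 in all 3 untreated libraries. Mir744 stood at 19.2, 29.3 and 6.59 FPKM with PBS and was listed at 0 with the ointment. In untreated skin Mir744 stood at 26.3, 26.3 and 36.6 FPKM, unlike Mir1224. Divided by what a single read is worth in each library, relative to WT_PBS replicate 1, the PBS values of Mir1224 came to 1.00, 0.977 and 1.95 steps. Those of Mir744 came to 1.00, 0.985 and 1.97 steps, and its untreated values to 0.985, 1.00 and 0.985 steps. Each of these values thus amounts to 1 or 2 of the same step, which may be as little as a single read.

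**Figure D3:**
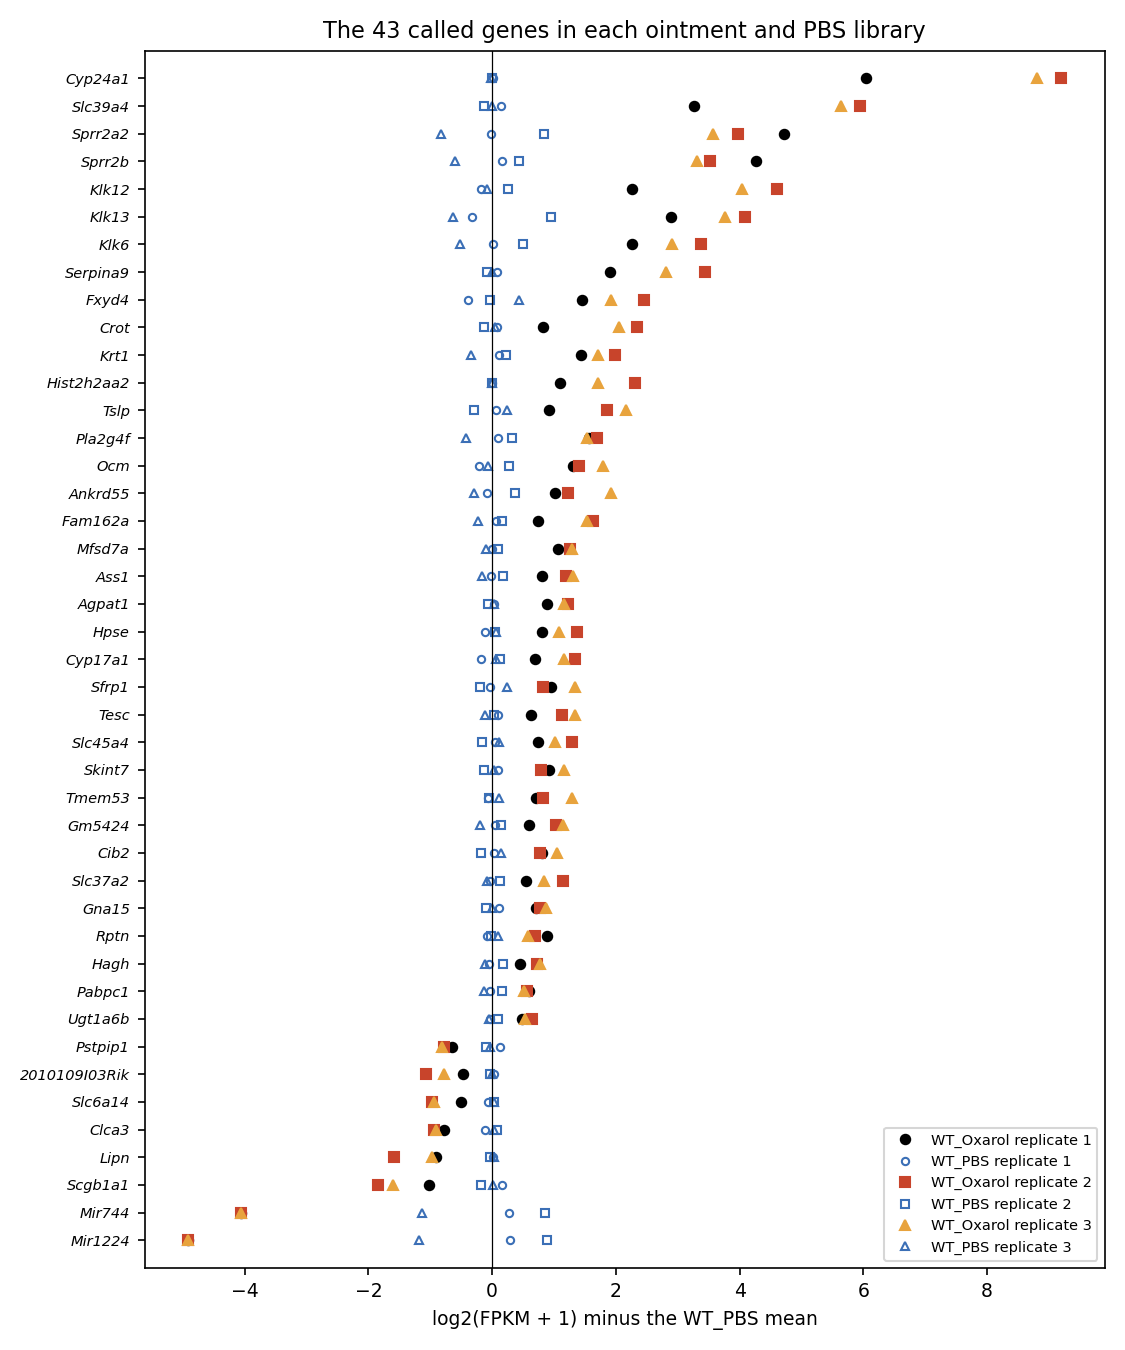
Each row is 1 of the 43 called genes and the horizontal axis is log2(FPKM + 1) minus the mean of the 3 PBS libraries; filled symbols are the ointment libraries (replicate 1 circles, 2 squares, 3 triangles) and open symbols the PBS libraries. Replicate 1 is the ointment library nearest to PBS in 27 of the 35 raised genes, and in Sprr2b and Sprr2a2 it is the farthest.

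The ointment libraries were not equal. WT_Oxarol replicate 1 was the lowest of its group in 27 of the 35 raised genes, replicate 2 in 3 and replicate 3 in 5, and replicate 1 was the highest in 6 of the 6 lowered genes with values above 0. Cyp24a1 in replicate 1 stood at 66.2 FPKM, against 599 and 458 FPKM in the others. In 4 raised genes, Sprr2b, Sprr2a2, Rptn and Pabpc1, replicate 1 was instead the highest. Without replicate 1 the calls numbered 70 higher and 62 lower, and all 43 genes were among them. From the steps of low values, replicates 1, 2 and 3 of WT_Oxarol held 0.882, 1.21 and 0.370 times the reads of WT_PBS replicate 1, and WT_PBS replicates 2 and 3 held 0.644 and 5.72 times; a factor of 2 remains possible for each. WT_PBS replicate 3, the deepest, also stood apart in hair genes, described below, and its part in the response was not tested beyond leaving it out.

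Few genes were called, and their number depended on the fit, from 0 with the 6 libraries alone to 360 with array weights. With 3 libraries a group, few calls do not show that few genes responded. Over all genes tested the median log2 difference was 0.01 and the median of its absolute value 0.10, and 52.1% of genes were above 0. At an unadjusted p under 0.05 there were 505 higher and 542 lower genes (3.59% and 3.86%), so the excess of rises appears at the smallest p-values: 39 of the 50 genes with the smallest p were higher, 62 of the first 100 and 117 of the first 200. Differences of at least 1 (2-fold on this scale) numbered 109 higher and 108 lower, of which 25 and 4 were called. At 3 or more (8-fold) there were 18 higher and 16 lower, of which 6 and 2 were called, the 2 lower ones being Mir1224 and Mir744. The median difference was 1.20 among the called higher genes and -1.01 among the called lower genes. With PBS, 7 of the 35 raised genes had a mean under 1 FPKM, 16 had 1 to 10 FPKM and 12 had at least 10 FPKM. With the ointment, 5 had a mean of at least 100 FPKM.

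Summed over the 35 raised genes, the share of all FPKM was 0.129%, 0.137% and 0.117% in the PBS libraries and 0.310%, 0.529% and 0.443% in the ointment libraries. These genes were chosen for being higher, so the share is a description. The gain in mean level came to 1553 FPKM, of which Cyp24a1 gave 24.1%, Krt1 18.8%, Fam162a 8.33%, Klk6 5.64%, Sprr2a2 4.87% and Klk13 4.80%. The first 10 genes gave 81.6%.

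Genes just outside the threshold included some with large, non-overlapping differences. Defb14, a beta-defensin of skin, stood at 49.0, 54.6 and 44.8 FPKM with PBS and at 106, 200 and 115 FPKM with the ointment (1.43 ± 0.26 SE, log2, adjusted p = 0.0661). Chi3l1, a chitinase-like protein gene, differed by 1.19 ± 0.23 (SE, adjusted p = 0.0789); among 27 antimicrobial genes 18 were above 0 and 0 were called (median 0.13, and 0.03 without WT_Oxarol replicate 3). At an unadjusted p under 0.05, 3 of the 27 were higher and 5 lower, against 3.59% and 3.86% of all genes tested. The 5 lower ones included the lipocalin gene Lcn2 at -0.49 and the peptidoglycan recognition gene Pglyrp1 at -0.53. Cyp26a1, which degrades retinoic acid, stood at 27.9, 17.8 and 26.8 FPKM with PBS and at 12.0, 10.7 and 9.74 FPKM with the ointment (-1.07 ± 0.20 SE, adjusted p = 0.0661). Among 20 retinoid genes 0 were called; the retinoic acid binding protein gene Crabp2 differed by 0.90 (adjusted p = 0.214). The remaining genes nearest the threshold were 1810011O10Rik (1.03, adjusted p = 0.0541), the steroid reductase gene Akr1d1 (1.21, adjusted p = 0.0570), the fructose transporter gene Slc2a5 (-0.74, adjusted p = 0.0570), 1190002H23Rik, now Rgcc (-0.71, adjusted p = 0.0596), Psors1c2 (0.91, adjusted p = 0.0612) and the alanine aminotransferase gene Gpt (0.75, adjusted p = 0.0666). Just inside it were Crot (adjusted p = 0.0496), Sfrp1 (0.0451) and Tslp (0.0440).

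**Figure D4:**
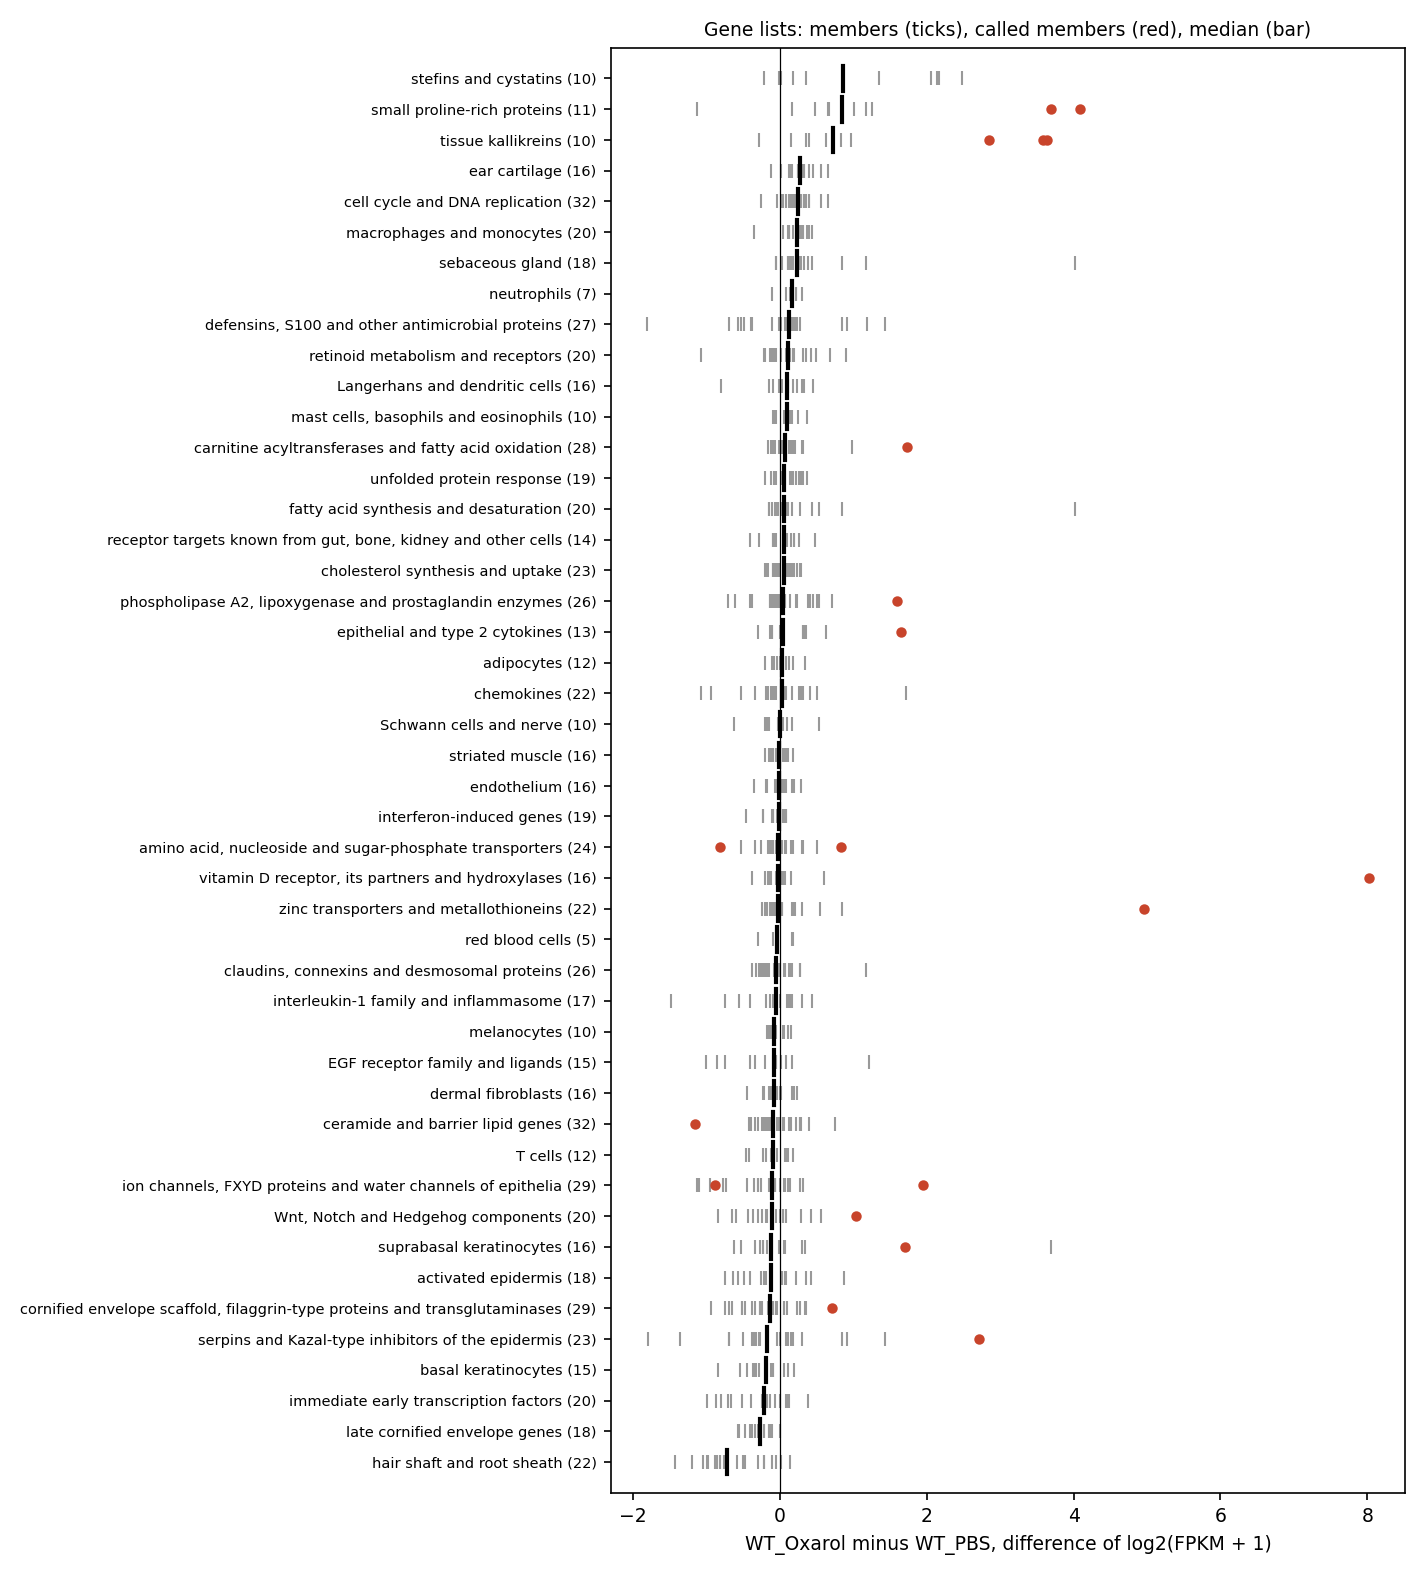
Each row is a gene list with at least 5 measured members (number in brackets), sorted by median; ticks are members, red points called members and the bar the median of the ointment minus PBS difference in log2(FPKM + 1). Stefins, small proline-rich proteins and kallikreins have the highest medians, at 0.86, 0.85 and 0.73, hair shaft genes the lowest at -0.72, and most lists lie near 0 with at most 1 called member.

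Across 29 pathway lists, 15 of 590 measured genes were called higher and 3 lower, against 0.249% and 0.0569% of all genes tested. The lists were chosen with earlier results of these data known, so these counts are a description and cannot show enrichment. Of the 43 called genes, 23 were in no list. No gene was called in the lists for cell cycle, interferon-induced genes, immediate early factors, the unfolded protein response, EGF receptor ligands, cholesterol synthesis, cell junctions or activated epidermis. Of 32 cell cycle and DNA replication genes, 30 were above 0, with a median of 0.25 that stood at 0.09 without WT_PBS replicate 3 and at 0.16 without WT_Oxarol replicate 1. Mki67, a marker of cycling cells, differed by 0.24 (adjusted p = 0.946), at 3.59, 4.44 and 3.11 FPKM with PBS and 6.18, 3.86 and 3.83 FPKM with the ointment. Of 20 immediate early genes 15 were below 0 (median -0.21, and -0.08 without WT_PBS replicate 3), and of 19 interferon-induced genes 9 were above 0 (median -0.01).

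In bulk skin, fewer cells of a type and less RNA per cell cannot be told apart. Of 234 measured cell type markers in 19 lists, 1 was called higher (Krt1) and 1 lower (Scgb1a1), against 0.249% and 0.0569% of all genes tested. These lists too were chosen with earlier results of these data known. The tissue matched its label: with PBS, the basal keratin Krt14 stood at 1394, 1799 and 1167 FPKM and Krt10 at 3481, 4743 and 2775 FPKM. Basal keratinocyte markers were below 0 in 12 of 15 (median -0.18, and -0.34 and -0.30 without WT_Oxarol replicate 1 and WT_PBS replicate 3), led by Krt15 at -0.84 (adjusted p = 0.103). Suprabasal markers were below 0 in 10 of 16 (median -0.11, but 0.04 without WT_PBS replicate 2). Macrophage markers were above 0 in 19 of 20, with a median of 0.24, and 5 were higher and 1 lower without overlap (7.53% and 8.36% of all genes). Their summed level, 744 to 831 FPKM with PBS and 798 to 1039 FPKM with the ointment, overlapped, but their mean log2(FPKM + 1) did not, at 4.22, 4.28 and 4.35 with PBS and 4.39, 4.48 and 4.63 with the ointment. Of these, the macrophage receptor gene Mrc1 stood at 10.3, 11.7 and 11.9 FPKM with PBS and at 14.6, 14.1 and 13.3 FPKM with the ointment (0.29, adjusted p = 0.299). T cell markers were below 0 in 8 of 12 (median -0.09), with 3 lower without overlap (8.36% of all genes). These 3 were Cd5 (-0.45), Cd2 (-0.41) and Lck (-0.22), while Cd3e differed by -0.04. Langerhans and dendritic cell markers were above 0 in 12 of 16 (median 0.10), with 4 higher and 1 lower without overlap (7.53% and 8.36% of all genes). Of these, Itgax and Ccr7 differed by 0.30 and 0.46 and the Langerhans cell marker Cd207 by -0.14, none passing. Hair shaft and root sheath genes had a median of -0.72 with 20 of 22 below 0, but their summed level was 20.7, 29.3 and 387 FPKM with PBS and 82.1, 18.7 and 18.4 FPKM with the ointment, so 1 library in each group stood high. Krt71 of the inner root sheath was at 48.2 FPKM in WT_PBS replicate 3 and at most 0.868 in the other PBS libraries. In the first library code series alone, which leaves out replicate 3 of each group, the hair median was 0.53. Cartilage and sebaceous markers had medians of 0.27 and 0.23 with 0 called. The cartilage median ran from 0.12 without WT_PBS replicate 2 to 0.45 without WT_Oxarol replicate 1, and the sebaceous median was 0.09 without WT_Oxarol replicate 2; the part of these tissue shares in the response was not tested.

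The same genes were followed in the other groups. They were called on the wild type ointment and PBS libraries, and each comparison below shares one of these groups, so the counts describe the chosen genes. Against untreated skin, the ointment libraries had 184 called genes (1.31% of all), 139 higher (0.989%) and 45 lower (0.32%), and of the 43 genes 31 raised and 6 lowered were called in the same direction. The count was 49 without WT_untreated replicate 3, and 34 and 35 without WT_Oxarol replicates 2 and 3. Untreated libraries were below the ointment libraries without overlap for 34 of the 35 raised genes (8.97% of all genes; the exception was Skint7) and above them for 7 of the 8 lowered genes (9.85% of all; the exception was Mir1224). In the libraries labelled VDRcKO_Oxarol, Vdr itself stood at 23.6, 25.0 and 18.0 FPKM, above wild type, and a value over the whole gene does not check a deletion. Cyp24a1 stood there at 0, 0.271 and 0.175 FPKM, Slc39a4 at 0.393, 0.664 and 0.671 FPKM, and Tslp at 4.90, 7.38 and 6.98 FPKM. These libraries lay below WT_Oxarol without overlap for 24 of the 35 raised genes (14.3% of all genes) and above WT_PBS without overlap for 23 (31.0% of all genes). Both held for 12 of the 35 (0.164% of all genes). In the 35, WT_Oxarol and WT_PBS are apart by selection, so these shares are not alike. Among the 12 were Klk6, at 31.8, 27.4 and 22.1 FPKM, and Sprr2b, at 5.47, 7.21 and 5.19 FPKM. Skint7, Rptn and Slc37a2 were higher without overlap in the libraries labelled VDRcKO_Oxarol than in WT_Oxarol (3 of 35, against 27.9% of all genes), and Krt1 stood at 488, 620 and 618 FPKM against 344, 502 and 415 FPKM. All VDRcKO_Oxarol libraries come from the second series of library codes, which holds 1 library of each wild type group, so genotype and series cannot be fully told apart there.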

How the data were processed

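Per the labels' protocols, ear skin RNA was made into libraries with the NEBNext Ultra kit. The submitters' processing notes name the mouse build mm9 and the tools TopHat2 2.0.8, Bowtie2 2.1.0 and Cufflinks 2.1.1. Settings and any strand option were not given in the sources used here. The authors deposited 1 value per gene symbol, taken as FPKM; the headers name no unit, which was inferred from Cufflinks and the values. No counts were used. Members and lists were chosen with earlier results of these data known.

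Levels were tested as log2(FPKM + 1) with limma 3.58.1 in R 4.3.3: 1 fit of 4 group means over 12 libraries, a variance trend, and Benjamini-Hochberg adjustment over 14059 genes at 0.05. This scale understates differences at low levels. Errors are limma's moderated SE unless stated. The test was run first on simulated data with independent normal noise. Those data lacked the unequal libraries and the zeros of abundant genes seen here, so that run does not check the calls. Nothing in the labels ties replicate libraries to separate animals, and p-values then reflect the spread between samples alone, possibly a technical one. Genes named were all called genes, Vdr, the 10 nearest outside the threshold, the 5 largest non-overlapping differences each way among genes not called with at least 5 FPKM in the higher group, and the measured list members with the smallest p (at most 3 a list); others are given as list members or were chosen after their values were seen. The 49 lists include 1 of sex-linked genes used to check the libraries; Xist stood at 7.69 to 10.4 FPKM in all 12. Alternatives were the pseudocount, the filter, the scaling, the variance model, the libraries in the fit, the library code series (6 libraries each), and omitting short RNA genes, zeros of abundant genes or 1 library. Promoter letters came from RefSeq GRCm38.p6. Figures used Python 3.11.15 and matplotlib 3.10.9. Near-identical genes may share reads.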

Additional observations from a re-analysis of the deposited data

How the results depend on the processing

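No called gene changed direction under any alternative that tested it (41 of the 43 with short RNA genes left out, 36 with the filter of 5 FPKM, all 43 in the others). Where ointment and PBS libraries do not overlap, omitting a library or changing the pseudocount, filter or variance model cannot reverse a direction. The unchanged direction is therefore a description and no support for the calls. Calls numbered 38 with a pseudocount of 0.1 (38 of them among the 43; Ocm, Fxyd4, Ankrd55, Sfrp1 and Crot lost theirs), 45 with quantile normalization (39; Ugt1a6b, Gm5424, Slc37a2 and Ankrd55), 44 with median-of-ratios scaling (43), 44 with the series as a term (34), 51 with robust variances (43), 45 with abundant zeros set to missing (43), 50 with short RNA genes left out (41) and 36 with the filter of 5 FPKM (34). The fit of the 6 libraries alone called 0 genes (0 higher, 0 lower; 1401 at an unadjusted p under 0.05 in limma). The first series alone, with 2 libraries a group, called 8 (5 higher, 3 lower), of which 3 were among the 43. These 3 were Sprr2b, Mir1224 and Mir744, while Cyp24a1, Slc39a4, Klk13 and Krt1 lost their calls there. Array weights called 360 (177 higher, 183 lower). Without a filter 29 genes were called, 5 of them lower. Leaving out 1 library gave 13 to 132 genes (10 to 70 higher, 3 to 62 lower). Every called gene lost its call in the 6-library fit: 20 lost it under 1 to 5 alternatives, 22 under 6 to 10, and Slc37a2 under more. Against untreated skin, 184 genes became 90 without a filter, 561 with array weights, and 34 to 254 over the fits leaving out 1 library, which were chosen after seeing the data. Leaving out 1 of the 6 libraries moved the median difference of 43 of 48 gene lists by over 1.5 times or across 0, all but those of the kallikreins, stefins, fatty acid oxidation, macrophages and salivary and airway genes. The cause of these moves was not tested. No paired analysis was possible because replicate numbers follow accession order and pair nothing. Read depth is known only as ratios, so the counting error of low values is not known.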

Other observations

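Some abundant genes were listed at 0 in 1 library. The suprabasal keratin gene Krt2 stood at 3957 and 6257 FPKM in WT_PBS replicates 1 and 2 and was listed at 0 in replicate 3, and Scd1, the desaturase of sebaceous glands, stood at 1846 and 1745 FPKM and was listed at 0 there. Their log2 differences of 3.70 and 4.03 were not called (adjusted p = 0.891 and 0.788). These zeros may be failed estimates, and both genes are described only as listed at 0 in that library.

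Among genes not called, several of the largest non-overlapping differences were in short RNA genes. Mir223, a microRNA gene of myeloid cells, stood at 8.21, 4.29 and 23.1 FPKM with the ointment and at or near 0 with PBS (3.40, adjusted p = 0.0796). Snora44 stood at 10.6, 32.7 and 7.35 FPKM with PBS and was listed at 0 with the ointment (-3.89, adjusted p = 0.146). How many reads these short RNA values stand for was not worked out, and they may rest on very few. The chemokine gene Ccl27b was lower in all ointment libraries (73.2, 40.8 and 0.367 FPKM) than with PBS (117, 80.9 and 87.8 FPKM), with a log2 difference of -2.55 (adjusted p = 0.878), and its relative Ccl27a differed by -1.07 (adjusted p = 0.171). The transporter gene Slc1a1 of the amino acid list differed by 0.51 and the connexin gene Gjb6 by 1.18, neither being called.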
